A study of Mus musculus with 6 samples.

Results

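Vascular smooth muscle and pericyte genes were read in the right atrium (RA) of young mice under volume overload (VO). The 10 genes Acta2, Myh11, Tagln, Cnn1, Smtn, Lmod1, Rgs5, Notch3, Pdgfrb and Cspg4 were chosen by name as markers of the cells that wrap blood vessels, and each had 1 row among the 54093 genes of the table. RNA came from RA free wall myocardium of wild-type C57BL/6 mice, collected at postnatal day 21. The sham group (3 libraries) had sham surgery, and the VO group (3 libraries) had an aortocaval fistula (ACF), a needle puncture that joins the abdominal aorta to the inferior vena cava and returns extra blood to the RA. Both groups were operated on at postnatal day 7, in mice of either sex. The sources used here do not say whether a library is 1 animal or a pool, so p-values measure the spread between these libraries.

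Mural cells sit on the outer side of the endothelium. Smooth muscle cells ring arteries, arterioles and veins and contract through actin and smooth muscle myosin, and this contractile program is driven by the serum response factor SRF with its partner myocardin. Pericytes wrap capillaries, are recruited by PDGF-B that endothelial cells release onto the receptor PDGFRB, and need signals from the ligand JAG1 to the receptor NOTCH3. Several contractile genes, Acta2 among them, are also expressed by immature cardiomyocytes and by activated fibroblasts. In bulk RNA, fewer cells of a type and less RNA per cell cannot be told apart.

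The libraries held 15963082 to 17237903 fragments on genes. Of the 10 genes, 9 had a mean of at least 1 FPKM (fragments scaled by gene length and library size) and were tested among 12627 genes with limma on log2(FPKM + 0.1), while Tagln was below the filter. Atrial markers were high in every library (Myl7 at 2586 to 8501 FPKM and Bmp10 at 980.6 to 1702), and the ventricular factor gene Irx4 was at most 0.259 FPKM. Irx4 is 1 of 12 ventricular and skeletal tissue markers, whose summed level was 266 to 508 FPKM in sham and 149 to 244 in VO. Of these, 4 were tested and all 4 were lower in VO, with Myl2 at -1.64 and Myl3 at -0.77 on the log2 scale. The part of such tissue in the libraries was not tested. VO 1 stood apart from the other 5 libraries: the summed level of 12 macrophage and leukocyte markers was 956 FPKM in VO 1 and 275 to 383 in the others, and that of 15 atrial cardiomyocyte markers was 9088 FPKM in VO 1 and 12884 to 24707 in the others. Values without VO 1 are therefore given beside those of the 10 genes. Sham 1 also stood out in the cardiomyocyte sum, at 24707 FPKM against 18260.5 in sham 2 and 18106 in sham 3. For Notch3 and Pdgfrb, where sham 1 was the lowest library, values without sham 1 are given too.

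In sham RAs the levels of the 10 genes spanned more than 2 orders of magnitude on the FPKM scale, which is per length and can be compared between genes. Acta2 was highest at 164 ± 33.3 FPKM (SD, n = 3), followed by Rgs5 at 69.2 ± 4.33, Smtn at 32.4 ± 1.97, Pdgfrb at 16.6 ± 2.03, Notch3 at 6.59 ± 1.21 and Myh11 at 4.44 ± 0.326. Cnn1 (2.12 ± 0.235), Cspg4 (1.81 ± 0.203) and Lmod1 (1.5 ± 0.321) came next, and the ranges of neighbouring genes in this trio overlapped. Tagln was lowest, at 0.516 ± 0.187 FPKM. In VO the first places were exchanged, with Rgs5 at 94.5 ± 15.4 FPKM and Acta2 at 83.9 ± 25.8 (SD, n = 3), although Acta2 was still above Rgs5 in VO 2.

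**Figure D1:**
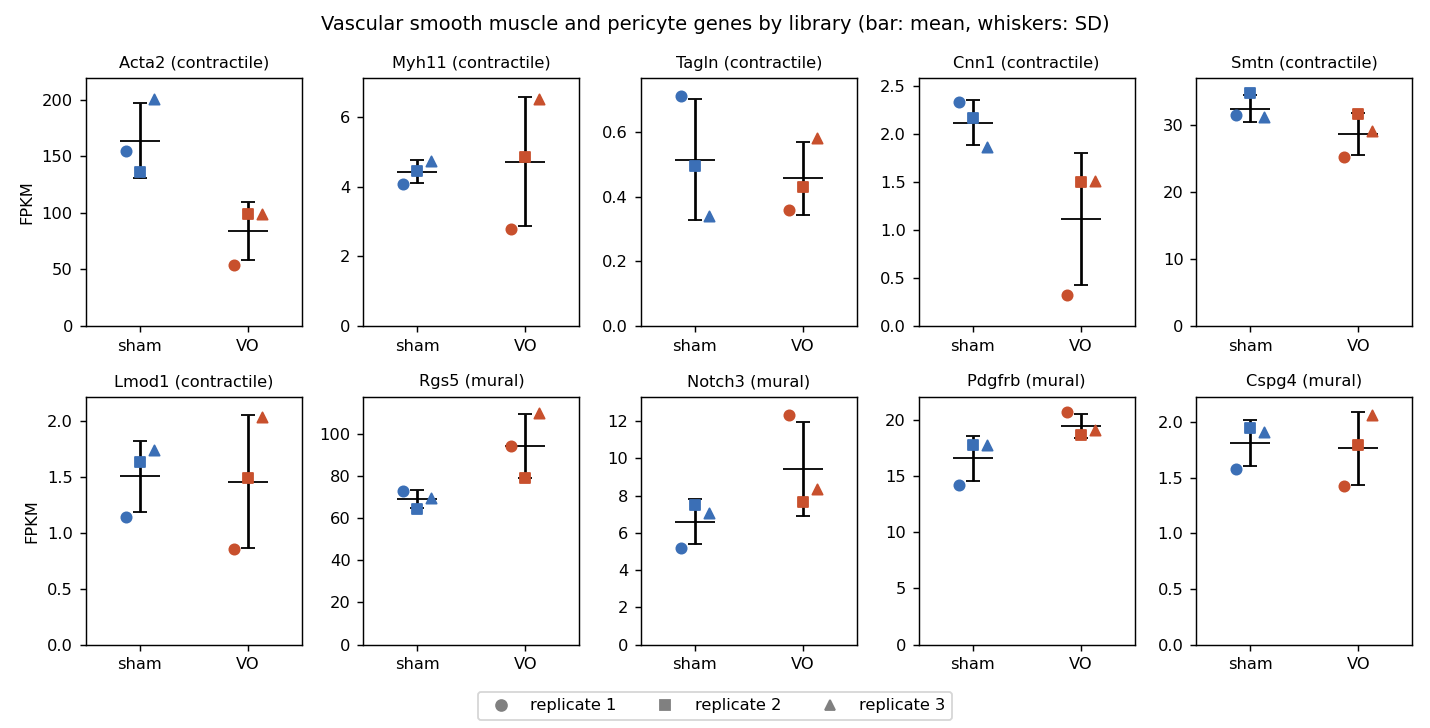
FPKM (linear axes from 0) of the 10 genes in the 3 sham and the 3 VO libraries, with 1 symbol for each replicate number, the group mean as a bar and the SD as whiskers. Acta2 and Cnn1 lie lower in every VO library than in every sham library, Rgs5, Notch3 and Pdgfrb lie higher, and the other five overlap.

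Between VO and sham, Acta2 and Cnn1 were lower and Rgs5, Notch3 and Pdgfrb were higher in all VO libraries. Myh11, Smtn, Lmod1, Tagln and Cspg4 overlapped between the groups. After adjustment over all tested genes none of the 9 passed (0 of 9 at an adjusted p under 0.05, against 0.00792% of all tested genes, 1 gene in all). Of all tested genes, 51.5% were lower and 48.5% higher in VO, the background also for the lists below. At an unadjusted p under 0.05, 1 gene was lower (Acta2) and 1 was higher (Rgs5), where 8.08% of all tested genes were lower and 3.89% were higher. With TPM as the scaling the split over all tested genes turned, to 486 lower and 1085 higher. With fragment totals it was 631 lower and 942 higher, and with voom on recovered fragments 1070 lower and 546 higher. Of the 9 tested genes, 2 lay wholly below and 3 wholly above sham, where 12.9% and 8.25% of all tested genes did. Among the 9, the counts at an unadjusted p were 1 lower and 3 higher with TPM or with fragment totals as the scaling, and 2 lower and 2 higher with voom on recovered fragments.

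Acta2 encodes the smooth muscle alpha-actin and is the most abundant gene of the group. It lies on chromosome 19 from 34241090 to 34255336 on the minus strand (ENSMUSG00000035783, GRCm38). Acta2 was read at 154, 136 and 201 FPKM in sham 1 to 3 and at 54.1, 98.7 and 98.9 FPKM in VO 1 to 3. All VO libraries were below all sham libraries, and VO 1 was lowest. The ratio of the VO mean to the sham mean was 0.512. On the log2(FPKM + 0.1) scale the fold change was -1.0 (standard error, SE, 0.27, 95% interval -1.63 to -0.37, limma's adjusted p = 0.373, unadjusted p = 0.00733 for 3 against 3 libraries). Without VO 1 the log2 fold change was -0.71. The unadjusted p stayed under 0.05 in 19 of 19 alternatives, between 0.00413 and 0.0289, and the adjusted p ran from 0.247 to 0.693. These alternatives include FPKM as given, which repeats the main fit.

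Acta2 is 1 of 6 actin genes whose proteins are almost alike, so its reads were compared with those of its relatives. No 50-base window of Acta2 transcripts was found exactly in transcripts of Actc1, Acta1, Actg2 or Actb, and 7 of 2146 windows were found elsewhere, in Actg1 and related pseudogenes. The cardiac actin gene Actc1 held most of the actin signal in every library, at 93.8% to 94.4% of the summed actin FPKM in sham and 88.5% to 92.6% in VO. Acta2 made up 2.5%, 2.33% and 2.94% in sham 1 to 3 and 1.81%, 2.42% and 2.57% in VO 1 to 3, so the groups overlapped. Actc1 itself was at 5923 ± 480 FPKM in sham and 3302 ± 587 in VO (SD, n = 3 each), a log2 fold change of -0.86 (limma's adjusted p = 0.373). The ratio of Acta2 to Actc1 was 0.0275 ± 0.00330 in sham and 0.0250 ± 0.00409 in VO (SD, n = 3 each), with overlap. The cytoplasmic actin genes Actb and Actg1 had log2 fold changes of 0.37 and 0.26 (limma's adjusted p of 0.438 and 0.455), while the skeletal Acta1 and the enteric Actg2 did not pass 3.48 FPKM in any library.

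Short stretches before the start of Acta2 and of 3 related genes are shown because SRF binds the CArG box, 10 bases with CC and GG around 6 bases of A or T, and the levels of these 4 genes, chosen after their values were seen, were all lower in VO. Each stretch holds 30 bases of the GRCm38.p6 assembly, from RefSeq, read 5′ to 3′ on the strand of the gene. Capitals mark the box. The 2 boxes of Acta2 each differ from the full pattern in 1 of the 6 A or T positions; they lie 84 to 75 and 34 to 25 bases before the RefSeq start. Of the 250 bases before that start, 217 lie in annotated exons of GENCODE vM21, where some transcripts of the gene begin further upstream. The first box of Acta2 has the same letters as a box of Actc1, which lies 175 to 166 bases before its start, and Actc1 also holds a full match, shown second. The boxes shown for Srf and Myl9 also match the pattern in full. Boxes are numbered by the order shown here, and not all boxes are shown. With up to 1 mismatch, the 250 bases before the start hold 4 boxes in Actc1 and 2 each in Srf and Myl9. The Actc1 box shown second lies 47 to 38 bases before the start.
Acta2 first box, chr19:34255438-34255467: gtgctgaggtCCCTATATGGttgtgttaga
Acta2 second box, chr19:34255388-34255417: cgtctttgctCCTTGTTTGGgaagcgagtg
Actc1 first box, chr2:114053031-114053060: ctccctagctCCCTATATGGccattgctct
Actc1 second box, chr2:114052903-114052932: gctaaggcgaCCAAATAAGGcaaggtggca
Srf, chr17:46556225-46556254: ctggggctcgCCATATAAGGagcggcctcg
Myl9, chr2:156775293-156775322: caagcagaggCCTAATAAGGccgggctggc

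A promoter entry was at hand for 7 of the 10 genes (not for Myh11, Tagln and Pdgfrb). Within the 250 bases before the start, a full CArG box on either strand was present in 0 of these 7 and in 1.48% of 32536 promoters. With up to 1 mismatch in the A or T positions, 1 of the 7 (Acta2) held a box, as did 8.59% of all promoters. These matches describe letters in a short window and not binding.

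Cnn1, which encodes calponin, an actin-binding brake on smooth muscle myosin, lies on chromosome 9 from 22099216 to 22109630 (ENSMUSG00000001349). It was read at 2.33, 2.16 and 1.86 FPKM in sham 1 to 3 and at 0.322, 1.5 and 1.51 in VO 1 to 3. The groups did not overlap, and VO 1, with 16 fragments, was far below the other VO libraries, which held 67 and 68. The log2 fold change was -1.10 (SE 0.52, 95% interval -2.33 to 0.13, limma's adjusted p = 0.424). It was -0.46 without VO 1, and the unadjusted p was 0.072 with all libraries and from 0.0385 to 0.160 over the alternatives.

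Myh11 encodes the smooth muscle myosin heavy chain, the marker most restricted to differentiated smooth muscle. It lies on chromosome 16 from 14194535 to 14291372 (ENSMUSG00000018830). Myh11 was read at 4.09, 4.47 and 4.74 FPKM in sham 1 to 3 and at 2.80, 4.87 and 6.52 FPKM in VO 1 to 3. The sham libraries lay inside the range of the VO libraries, which held both the lowest and the highest value of the 6. This gave a log2 fold change of 0.01 with a 95% interval of -0.66 to 0.68 (limma's adjusted p = 0.986). The sign was not stable: it was 0.34 without VO 1, -0.26 without VO 3 and -0.02 with quantile normalization.

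Lmod1, leiomodin 1, nucleates actin filaments in smooth muscle (chromosome 1, 135324807 to 135368065, ENSMUSG00000048096). Its level was 1.14, 1.63 and 1.74 FPKM in sham 1 to 3 and 0.852, 1.49 and 2.03 FPKM in VO 1 to 3. As with Myh11, VO 1 was the lowest and VO 3 the highest of the 6 libraries. The log2 fold change was -0.10 (95% interval -0.90 to 0.71, limma's adjusted p = 0.912), and it was 0.22 without VO 1 and 0.03 with TPM.

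Smtn encodes smoothelin, a cytoskeletal protein of contractile smooth muscle (chromosome 11, 3517523 to 3540612, ENSMUSG00000020439). Its level was 31.5, 34.7 and 31.2 FPKM in sham 1 to 3 and 25.3, 31.6 and 29.2 FPKM in VO 1 to 3. The groups overlapped through VO 2. For Smtn the log2 fold change was -0.18 (95% interval -0.46 to 0.10, limma's adjusted p = 0.504), and it was -0.09 without VO 1 and -0.04 with TPM. Of its exonic bases, 16.3% are shared with other genes of the annotation.

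Tagln encodes transgelin (SM22), an actin cross-linker that is usually among the most abundant transcripts of smooth muscle. Here it was read at 0.711, 0.496 and 0.340 FPKM in sham 1 to 3 and at 0.360, 0.432 and 0.581 FPKM in VO 1 to 3, which stood for 11 to 22 fragments in a library. The groups overlapped throughout, and with a lower filter of 0.1 FPKM the log2 fold change was -0.12 (SE 0.34, limma's adjusted p = 0.913). The gene lies on chromosome 9 from 45929619 to 45936058 (ENSMUSG00000032085) and shares 67.9% of its exonic bases with Pcsk7 and the antisense gene Gm48529 on the other strand. Its neighbour Pcsk7 was at 5.59 to 7.18 FPKM and Gm48529 at 0.0458 to 0.363 FPKM. How reads over shared bases were counted is not given in the sources used here, so the level of Tagln is uncertain. Its paralog Tagln2, which shares no 50-base window with it, was at 51.9 to 69.1 FPKM with a log2 fold change of 0.13 (limma's adjusted p = 0.632).

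**Figure D2:**
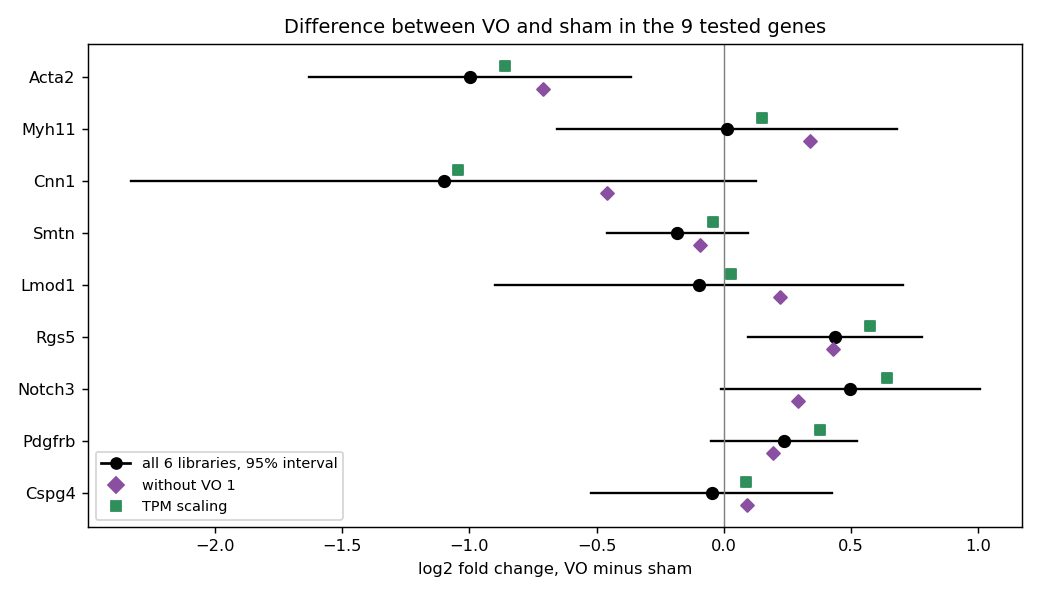
Log2 fold change (VO minus sham) of the 9 tested genes with all 6 libraries as black points with 95% intervals, without VO 1 as diamonds, and with TPM scaling as squares. The interval lies wholly below 0 for Acta2 (-1.63 to -0.37) and wholly above 0 for Rgs5 (0.10 to 0.78), and the diamonds and squares of Myh11, Lmod1 and Cspg4 lie above 0.

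Of the 4 mural genes, Rgs5, Notch3 and Pdgfrb lay above sham in all VO libraries, Rgs5 alone at an unadjusted p under 0.05, and Cspg4 overlapped between the groups. Rgs5, a regulator of G protein signalling that is a common pericyte marker, lies on chromosome 1 from 169655501 to 169695813 (ENSMUSG00000026678). Rgs5 was read at 73.2, 64.6 and 69.8 FPKM in sham 1 to 3 and at 94.4, 79.1 and 109.9 FPKM in VO 1 to 3. All VO libraries were above all sham libraries. The ratio of the means was 1.36 and the log2 fold change 0.44 (SE 0.14, 95% interval 0.10 to 0.78, limma's adjusted p = 0.404, unadjusted p = 0.0190 for 3 against 3 libraries). It was 0.43 without VO 1. The unadjusted p was under 0.05 in 17 of 19 alternatives, with 0.0690 without sham 2 and 0.0591 without VO 3. The 17 include FPKM as given, which repeats the main fit.

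Notch3 encodes the Notch receptor of smooth muscle cells and pericytes (chromosome 17, 32120820 to 32166880, ENSMUSG00000038146). Its level was 5.21, 7.48 and 7.09 FPKM in sham 1 to 3 and 12.3, 7.67 and 8.34 FPKM in VO 1 to 3. The groups did not overlap, but VO 2 was only slightly above sham 2 and VO 1 was far above the rest. The log2 fold change was 0.50 (SE 0.22, 95% interval -0.01 to 1.01, limma's adjusted p = 0.414). It was 0.29 without VO 1 and 0.34 without sham 1.

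Pdgfrb encodes the receptor for PDGF-B, which pericytes share with fibroblasts (chromosome 18, 61045150 to 61085061, ENSMUSG00000024620). Its level was 14.3, 17.8 and 17.8 FPKM in sham 1 to 3 and 20.7, 18.7 and 19.2 FPKM in VO 1 to 3. All VO libraries lay above sham, by less than 1 FPKM between the nearest libraries. Pdgfrb had a log2 fold change of 0.24 (SE 0.12, 95% interval -0.05 to 0.53, limma's adjusted p = 0.439) and it was 0.20 without VO 1 and 0.13 without sham 1, the library with the lowest value. Markers of fibroblasts moved with these genes in part: of 15 tested, 10 were higher and 5 lower. At an unadjusted p under 0.05, 3 were higher in VO (1 without VO 1) and 0 lower, where 3.89% and 8.08% of all tested genes were. The summed level of these markers was 2456 to 2974 FPKM in sham and 2137 to 2671 in VO. The smallest p were those of Mfap5, Col3a1, Col1a2 and Col1a1, genes of the extracellular matrix, at 0.35, 0.61, 0.56 and 0.51 on the log2 scale. The part of these markers in the Pdgfrb difference was not tested.

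Cspg4 encodes the NG2 proteoglycan of the pericyte surface (chromosome 9, 56865033 to 56899870, ENSMUSG00000032911). Its level was 1.58, 1.94 and 1.91 FPKM in sham 1 to 3 and 1.42, 1.80 and 2.07 FPKM in VO 1 to 3. The groups overlapped, and VO 1 and VO 3 held the lowest and the highest value. Cspg4 had a log2 fold change of -0.05 (95% interval -0.52 to 0.43, limma's adjusted p = 0.932), with the sign changed without VO 1 (0.09) and with TPM (0.09).

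**Figure D3:**
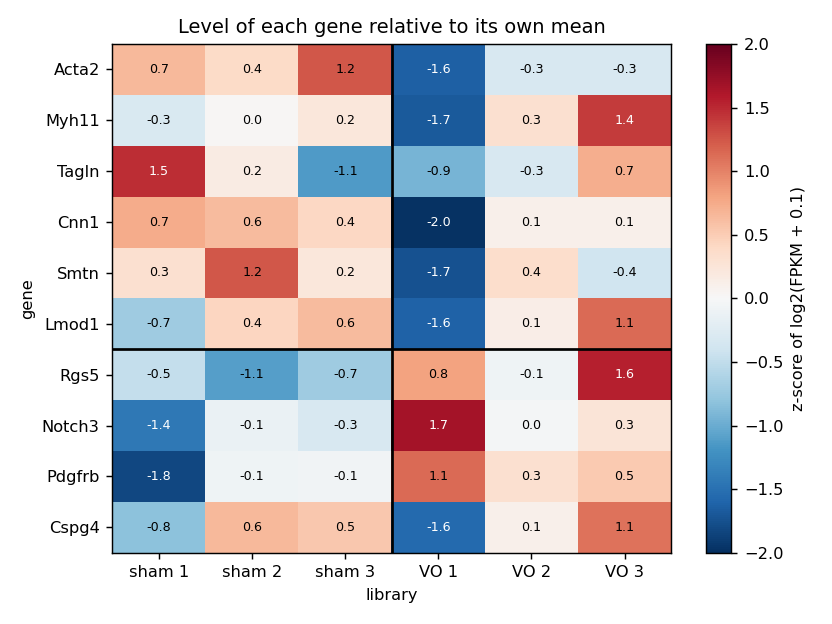
Level of each of the 10 genes in each library as a z-score of log2(FPKM + 0.1) over the 6 libraries, contractile genes above the line and mural genes below it. VO 1 is the lowest library for 5 of the 6 contractile genes and the highest for Notch3 and Pdgfrb, and VO 3 is the highest for Myh11, Lmod1, Rgs5 and Cspg4.

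The libraries also ranked differently by gene. VO 1 was the lowest of the 6 libraries in 6 of the 10 genes, of which 5 were contractile (Acta2, Myh11, Cnn1, Smtn and Lmod1) and 1 was Cspg4, and it was the highest in Notch3 and Pdgfrb. VO 3 was the highest in 4 genes and the lowest in none. VO 2 was neither the highest nor the lowest in any of the 10. The median log2 fold change was -0.18 over the 5 tested contractile genes and 0.34 over the 4 mural genes, against -0.01 over all tested genes. Without VO 1 these medians were -0.09 and 0.24. The contractile median was -0.36 without VO 3, -0.04 with TPM, -0.09 with fragment totals and -0.59 at a mean of at least 5 FPKM, where 2 of the 5 genes were left, and the mural median was 0.48 with TPM.

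Ratios between genes of the same library do not depend on the scaling between libraries, and they were formed after the values had been seen, so they are given without a test. The ratio of Rgs5 to Acta2 was 0.475, 0.474 and 0.348 in sham 1 to 3 and 1.75, 0.801 and 1.11 in VO 1 to 3. These groups could not overlap, because every VO library was already above every sham library in Rgs5 and below it in Acta2. The separation is therefore no further result. Relative to Pecam1, an adhesion molecule of all endothelial cells, Rgs5 was at 1.09, 1.12 and 1.04 in sham 1 to 3 and at 1.71, 1.13 and 1.86 in VO 1 to 3. In this ratio VO 2 was almost level with sham 2. The ratio of Pdgfrb to Pecam1 overlapped between the groups (0.262 ± 0.0477 in sham and 0.322 ± 0.0534 in VO, SD, n = 3 each), as did that of Notch3 to Pecam1. The ratio of Acta2 to Pecam1 did not overlap (2.55 ± 0.383 in sham and 1.35 ± 0.351 in VO, SD, n = 3 each), unlike that of Acta2 to Actc1. Pecam1 itself had a log2 fold change of -0.06 (limma's adjusted p = 0.833), which turned positive with TPM, fragment totals or quantile normalization and without VO 1.

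**Figure D4:**
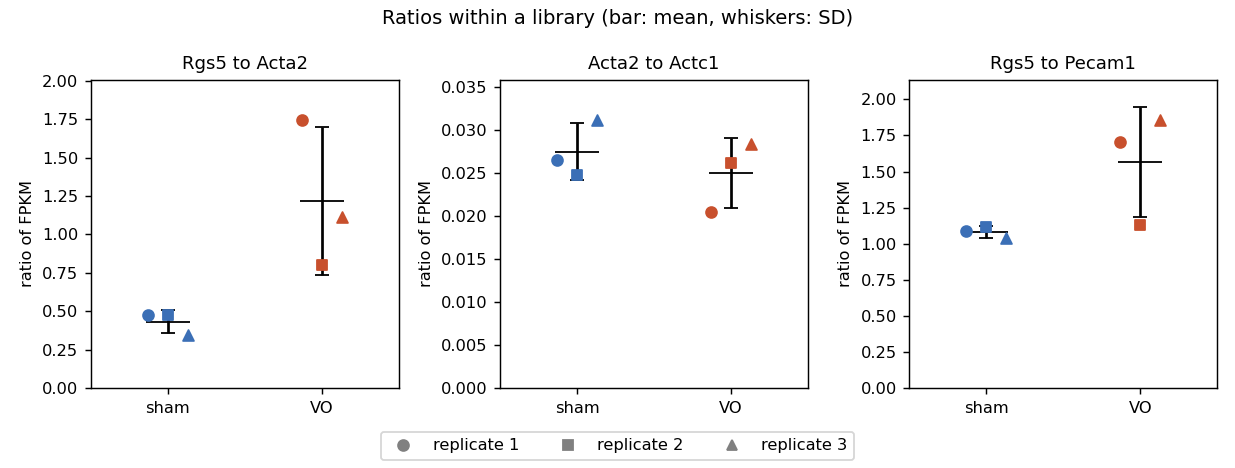
Ratios of FPKM within a library for Rgs5 to Acta2, Acta2 to Actc1 and Rgs5 to Pecam1 in the 3 sham and 3 VO libraries, with the mean as a bar and the SD as whiskers. The ratio of Rgs5 to Acta2 is 0.348 to 0.475 in sham and 0.801 to 1.75 in VO, a separation already fixed by the levels of Rgs5 and Acta2. That of Acta2 to Actc1 overlaps between the groups.

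A further 25 genes of smooth muscle contraction and its cytoskeleton were read beside the 6 contractile genes. Of the 23 tested, 18 were lower and 5 higher in VO, at a median of -0.18 on the log2 scale. Of all tested genes 51.5% were lower. At an unadjusted p under 0.05, 7 of the 23 were lower and 0 higher, where 8.08% and 3.89% of all tested genes were. After adjustment 0 of the 23 passed. With TPM, 13 were lower and 10 higher, and without VO 1, 16 were lower and 7 higher. At that p, 4 were lower and 0 higher without VO 1, as were 620 and 317 of the 12627 genes. With all libraries, the 4 with the smallest p were Cnn2, Pdlim7, Myl9 and Des. Cnn2, the broadly expressed calponin 2, was at 31.9, 27.8 and 25.4 FPKM in sham 1 to 3 and at 18.9, 17.7 and 18.5 FPKM in VO 1 to 3, without overlap. Its log2 fold change was -0.62 (SE 0.11, limma's adjusted p = 0.283), the smallest adjusted p of all genes in these lists, and it was -0.64 without VO 1.

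Myl9, a regulatory light chain of smooth muscle myosin, was at 832 ± 201 FPKM in sham and 407 ± 185 in VO (SD, n = 3 each), a log2 fold change of -1.10 (limma's adjusted p = 0.404), or -0.79 without VO 1. Its sham level was far above those of Acta2 (164 FPKM) and Myh11 (4.44 FPKM). The intermediate filament gene Des had a log2 fold change of -0.68 and the Z-disc and actin adaptor gene Pdlim7 of -0.45 (limma's adjusted p = 0.404 for both), with Des at -0.44 without VO 1. Des and Tpm1 of this list are also abundant in heart muscle. Of the 15 atrial cardiomyocyte markers, 13 were lower in VO, with a median of -0.47. At an unadjusted p under 0.05, 7 of them were lower, where 8.08% of all tested genes were. The summed level of the 15 was 18106 to 24707 FPKM in sham and 9088 to 17068 in VO. Myl9 and this sum were both highest in sham 1 and both lowest in VO 1. Without VO 1, 2 of the 15 had an unadjusted p under 0.05, both lower, and the median was -0.29. The smallest p were those of Myh7, Tnnt2, Tnnc1 and Actn2, at -0.66, -0.59, -0.75 and -0.42 on the log2 scale. The part of these markers in the lower contractile genes was not tested. Other genes of the list, picked after their values were seen, lay on the other side: the myosin kinase gene Mylk had a log2 fold change of 0.21, the caldesmon gene Cald1 of 0.17 and the integrin gene Itga8 of 0.49 (limma's adjusted p of 0.698, 0.488 and 0.422); Mylk was at -0.04 without VO 3, and Cald1 and Itga8 were at 0.11 and 0.30 without VO 1.

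The regulators of the contractile program were split. Srf was at 42.4, 55.4 and 52.9 FPKM in sham 1 to 3 and at 32, 36.6 and 32.3 FPKM in VO 1 to 3, all VO libraries below sham. Its log2 fold change was -0.57 (SE 0.13, limma's adjusted p = 0.344), and -0.54 without VO 1. Its coactivator Myocd was at 11.8 ± 0.860 FPKM in sham and 9.81 ± 1.11 in VO (SD, n = 3 each), without overlap, with a log2 fold change of -0.27 (limma's adjusted p = 0.422). Mkl1, a myocardin-related factor released by actin assembly, was on the other side at 2.63 ± 0.486 and 3.43 ± 0.379 FPKM (SD), a log2 fold change of 0.38 with the same adjusted p, and the log2 fold change of Mkl2 was 0.08. The SRF cofactor gene Fhl2 had a log2 fold change of -0.63 (limma's adjusted p = 0.325), and Csrp2, a LIM protein gene of smooth muscle, had one of -0.59 with overlap between the groups (limma's adjusted p = 0.414). Over the whole list of 13 regulators, 8 were lower and 5 higher, and the median was -0.09, or 0.05 with TPM. At an unadjusted p under 0.05, 2 were lower (Fhl2 and Srf), where 8.08% of all tested genes were. The paper counts Srf among sarcomere-associated genes, and 13 of 15 atrial cardiomyocyte markers were lower in these same libraries (median -0.47). The part of cardiomyocytes in the lower regulators was not tested.

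Relatives of the contractile genes were read beside them. The heart muscle leiomodins Lmod2 and Lmod3 had log2 fold changes of -0.59 and -0.63 (limma's adjusted p = 0.404 for both; Lmod2 at -0.39 without VO 1), against -0.10 for Lmod1. The nonmuscle myosin genes Myh9 and Myh10 had log2 fold changes of 0.32 and 0.31 (limma's adjusted p of 0.410 and 0.435; Myh10 at 0.21 without VO 1), against 0.01 for Myh11. Of the 7644 windows of 50 bases in Myh11 transcripts, 26 were found in Myh9 and 16 in Myh10. Cnn3, an acidic calponin of nonmuscle cells, had a log2 fold change of 0.22 (limma's adjusted p = 0.453), or 0.14 without VO 1, against -1.10 for Cnn1 and -0.62 for Cnn2.

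Beyond the 4 mural genes, 25 symbols of pericyte and mural genes were listed, of which 23 matched the table and 21 were tested. Of these, 15 were higher and 6 lower in VO, at a median of 0.15 on the log2 scale, where 48.5% of all tested genes were higher. In each direction 1 had an unadjusted p under 0.05, where 3.89% of all tested genes were higher and 8.08% lower. The higher one was Tbx18, a transcription factor of epicardium and mural cells, at 3.48 ± 0.766 FPKM in sham and 5.34 ± 1.41 in VO (SD, n = 3 each), with overlap and a log2 fold change of 0.59 (limma's adjusted p = 0.414). The lower one was Art3, at 146 ± 35.4 and 91.0 ± 20.1 FPKM (SD), a log2 fold change of -0.68 (limma's adjusted p = 0.404). Its sham level was far above that of Mcam, the next of the list at 25.7 FPKM. Like the sum of the cardiomyocyte markers, Art3 was highest in sham 1 (186 FPKM) and lowest in VO 1 (70.4 FPKM). Which cells its RNA came from was not tested. Steap4 and Anpep, next by p, had log2 fold changes of 0.64 and 0.29 (limma's adjusted p of 0.417 and 0.442). The genes of the pericyte potassium channel, Abcc9 and Kcnj8, named after their values were seen, had log2 fold changes of 0.08 and -0.09 (limma's adjusted p of 0.731 and 0.854), with Kcnj8 at 0.05 with TPM. Without VO 1, 0 of the 21 genes had an unadjusted p under 0.05 and the median was 0.08. The median was 0.09 without sham 1, 0.23 without sham 3 and 0.29 with TPM.

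The ligands of the mural receptors were read in the same libraries. Jag1, a ligand of NOTCH3 on endothelial and smooth muscle cells, was at 3.10, 4.35 and 4.43 FPKM in sham 1 to 3 and at 6.62, 5.72 and 4.89 FPKM in VO 1 to 3. All VO libraries were above sham, with a log2 fold change of 0.53 (SE 0.18, limma's adjusted p = 0.404), or 0.43 without VO 1. Rbpj, the transcription factor through which Notch receptors act, was at 4.94 ± 0.588 FPKM in sham and 6.52 ± 1.06 in VO (SD, n = 3 each), without overlap, a log2 fold change of 0.39 (limma's adjusted p = 0.410). Target genes of Notch lay on both sides and overlapped between the groups. Hes1, the fourth of the list by p, had a log2 fold change of -0.38 (limma's adjusted p = 0.497). Nrarp, Hey1, Hey2 and Heyl, named after their values were seen, were at -0.50, -0.19, 0.17 and 0.15 on the log2 scale (limma's adjusted p from 0.548 to 0.704), and without VO 1 Nrarp was at -0.13 and Heyl at -0.0022. The Notch ligand genes Jag2, Dll1 and Dll4 had log2 fold changes of 0.15, 0.34 and -0.18, and the receptor genes Notch1, Notch2 and Notch4 of 0.11, 0.12 and -0.08. All 6 overlapped between the groups, and the sign changed for Notch1 without sham 1 and for Notch4 with TPM or fragment totals and without sham 3, while Notch2 was at 0.03 without VO 1.

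Pdgfb, the ligand that recruits pericytes, was at 8.12 ± 0.711 FPKM in sham and 8.42 ± 0.375 in VO (SD, n = 3 each), a log2 fold change of 0.05. Pdgfd, a second ligand of PDGFRB, had a log2 fold change of 0.34 (limma's adjusted p = 0.462), which was 0.18 without VO 1. The log2 fold changes of Pdgfa, Pdgfc and Pdgfra were -0.06, 0.13 and -0.01. The sign of these and of Pdgfb changed when a library was left out, and that of Pdgfa and Pdgfra also with TPM. Over the 20 genes of PDGF and Notch signalling, 13 were higher and 7 lower, and 0 passed after adjustment. At an unadjusted p under 0.05, 2 were higher (Jag1 and Rbpj), where 3.89% of all tested genes were. Without VO 1, 10 were higher and 10 lower, and 0 had an unadjusted p under 0.05.

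Endothelial markers were split, to a degree that moved with the scaling. Of the 15 endothelial markers, 9 were higher and 6 lower in VO, at a median of 0.07 on the log2 scale and a summed level of 508 to 561 FPKM in sham and 485 to 533 in VO. At an unadjusted p under 0.05, 1 was higher and 2 were lower, where 3.89% and 8.08% of all tested genes were. With TPM, 12 were higher and 3 lower, and with quantile normalization 13 and 2; with TPM 3 passed that p, all higher. The 4 with the smallest p were Erg and Emcn, with log2 fold changes of -0.26 and -0.25, and Cdh5 and Ptprb, with 0.28 and 0.23 (limma's adjusted p from 0.406 to 0.453). Epicardial and mesothelial markers include a source of mural cells in development. Their summed level was 63.5 to 158 FPKM in sham and 71.4 to 171 in VO. Of 9 tested, 8 were higher and 1 lower (median 0.42), with 0 at an unadjusted p under 0.05. Those with the smallest p were Aldh1a2, Krt8, Krt19 and Upk1b, at 0.47, 0.63, 0.55 and 0.42 on the log2 scale. Without VO 1 these were at 0.24, 0.18, 0.11 and -0.07. The list was then 3 higher and 6 lower (median -0.07). All 12 macrophage and leukocyte markers were higher in VO (median 0.64). Without VO 1, 10 were higher and 2 lower (median 0.23).

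**Figure D5:**
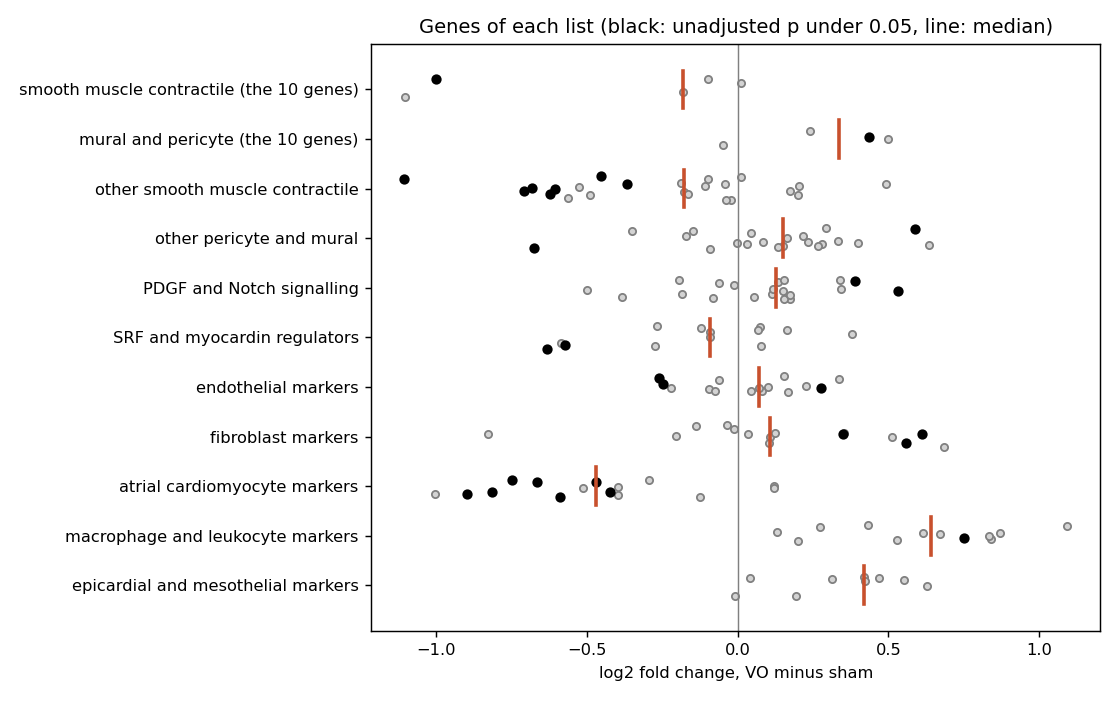
Log2 fold change (VO minus sham) of every tested gene of the lists on the y axis, 1 point per gene, black where the unadjusted p was under 0.05, with the median of each list as a line. The medians are -0.18 for both contractile lists, 0.34 and 0.15 for the mural lists, 0.07 for endothelial markers and -0.47 for atrial cardiomyocyte markers. They are 0.64 for macrophage and leukocyte, 0.42 for epicardial and mesothelial and 0.11 for fibroblast markers. For PDGF and Notch signalling the median is 0.13, and for the SRF and myocardin regulators -0.09.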

How the data were processed

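RNA was sequenced as 150-bp paired-end reads in 3 sham and 3 VO libraries. The authors aligned reads with HISAT2 2.0.5, counted them per gene with featureCounts 1.5.0-p3 and deposited FPKM values; the submitters' processing notes name GRCm38. The DESeq2 test of the authors was not repeated. With that test the paper reported far more genes at an adjusted p under 0.05 than limma gave here. It also reported Actc1 and Srf as lower in VO by qRT-PCR. Coordinates equalled those of a GRCm38 annotation (GENCODE vM21) for 98.4% of shared genes and for 8 of the 10 members (not Acta2 and Notch3), and overlaps and shared windows were read from that annotation. FPKM times gene length was a whole multiple of 1 step per library for 100% of values (tolerance 0.01), which gave back whole fragments. Whether strand was used in counting is not given in the sources used here.

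Libraries were put on one scale with median-of-ratios factors (1 in each), and genes were filtered to a mean of at least 1 FPKM, transformed as log2(FPKM + 0.1) and fitted with limma 3.58.1 in R 4.3.3 (eBayes with trend, two-sided, Benjamini-Hochberg over all 12627 genes, threshold 0.05). With 3 libraries against 3 an exact permutation test cannot go below 0.1. The fit was tested on simulated data. Alternatives were other scalings (TPM, fragment totals, quantile), pseudocounts, filters and eBayes settings, voom on recovered fragments (546 genes higher and 1070 lower at an unadjusted p under 0.05), a replicate block and leaving out each library. The members and lists were chosen with earlier results of these data known. Named were the 10 members, PDGF and Notch ligands and receptors, Srf, Myocd, Mkl1, Mkl2, paralogs of members, and the 4 genes of smallest p in each list that the text describes. Macrophage markers are given by their sum, direction and median. Others are said to be picked after values were seen. Figures used matplotlib 3.10.9 in Python 3.11.15.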

Additional observations from a re-analysis of the deposited data

How the results depend on the processing

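No member had an adjusted p under 0.05 in limma with all libraries (2 had an unadjusted p under 0.05) or in any alternative, voom included (4 at an unadjusted p). FPKM as given equalled the median-of-ratios scaling, because the deposited values already lay on that scale, so it is no separate check. TPM moved the median of all genes from -0.01 to 0.13. Acta2, Cnn1 and Smtn were lower, and Rgs5, Notch3 and Pdgfrb higher, in every alternative in which they were tested. The members higher at an unadjusted p under 0.05 numbered 1 with all libraries, 3 with TPM, 3 with fragment totals, 2 with voom, and 0 (without sham 2 or VO 3) to 2 with a library left out. The members lower at that p numbered 1, but 2 with a pseudocount of 1, 2 with voom, and 1 to 2 with a library left out (2 without any one VO library). These counts moved over all tested genes too. With a library left out, 281 to 784 of all tested genes were higher and 574 to 1214 lower at that p. With fragment totals 942 were higher and 631 lower, and with a pseudocount of 1, 483 and 1023. Those wholly below sham numbered 2, and 1 at a mean FPKM of at least 5, where Cnn1 was not tested. Member promoters with a CArG box numbered 0, and 1 with a mismatch allowed.

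The sign changed for Myh11 (log2 fold change 0.01) with quantile normalization (-0.024) and without sham 1, VO 2 or VO 3, within -0.26 to 0.34 over the libraries left out. It changed for Lmod1 (-0.10) with TPM (0.031) and without sham 3 or VO 1, within -0.36 to 0.22. It changed for Cspg4 (-0.05) with TPM (0.087), with fragment totals (0.042) and without sham 2 or VO 1, within -0.16 to 0.091. The Acta2 share of actin differed by -0.32 percentage points, and by -0.47 to -0.09 with a library left out. With a replicate block, the log2 fold change of Acta2 was -1.0 with an unadjusted p of 0.00766 and an adjusted p of 0.601, and all genes at an unadjusted p under 0.05 numbered 324 higher and 608 lower in place of 491 and 1020. Same-numbered libraries did not deviate together (correlations across genes of -0.108, 0.0112 and -0.0292), so the numbers were not taken as pairs. The causes of these changes were not tested. Depth limits Tagln and Cnn1, with 11 to 22 and 16 to 102 fragments per library.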
